A study of Mus musculus with 22 samples.

Results

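The 42 genes described here encode proteins that copy DNA or carry out mitosis, from the cyclins of G1 to the motors of the spindle. They were chosen by name, as a list, and read through the probes whose accession or gene name matched them. Of the 42 listed genes, 41 had a matched probe, and all 41 were well above background on both arrays of at least 1 comparison, among 26207 genes tested in all. Some were dim: probes used for Ccnb1, Cenpe, Foxm1 and Top2a had mean log2 levels of 6.52, 6.57, 6.67 and 6.80, against 13.43 for Pcna. Second probes of Cdk1 and Top2a, which did not pass that filter, had 6.11 and 6.21. The part of low intensity in small ratios and missing calls was not tested. Mki67, the antigen by which dividing cells are commonly counted, had no matched probe and has no value here.

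The measurements came from livers of 8-week-old ICR mice, pooled with 2 to 5 mice in a pool. There were 10 groups: sham-operated, vehicle-injected males and females (M-Sham and F-Sham), males and females whose pituitary was removed in adulthood (M-Hypox and F-Hypox), and Hypox mice of each sex given growth hormone (GH) once and killed after 30 or 90 min, or given it in 2 injections 4 h apart and killed 30 min after the last. All GH-treated mice had thus lost the pituitary, and with it its other hormones besides GH. Pools were set against each other on 2-colour Agilent arrays in 11 comparisons, each on 2 arrays of opposite dye, 22 arrays in all, and the 2 arrays carry differently labelled pools except where pools of a group shared mice. The sources used here do not give the make or dose of GH.

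Resting hepatocytes of the adult liver rarely divide, and most liver cells express the genes of S phase and mitosis at low levels. In cycling cells, cyclin D and cyclin E with their kinases open the way to S phase, the MCM helicase is loaded at origins and fired, PCNA clamps the polymerases to DNA, and ribonucleotide reductase, thymidylate synthase and thymidine kinase supply nucleotides. Later, cyclin A and B with Cdk1 drive entry into mitosis, kinetochores tie chromosomes to the spindle, the spindle checkpoint holds back the anaphase-promoting complex until all are attached, and mitotic genes are switched on together through CCAAT boxes and the cell cycle homology region (CHR) of their promoters. In pooled tissue, fewer cycling cells and less RNA per cell cannot be told apart.

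The promoters of 5 members are shown because these genes stand for the patterns described below: Top2a and Cdk1 for the mitotic genes that went up and down together from array to array, Spc25 and Tk1 for those that were lower after 2 GH injections, and Pcna for the rise after loss of the pituitary. Each is the 250 bases before the start of transcription, 5′ to 3′ on the minus strand of GRCm38.p6, as RefSeq gives it: Top2a chr11:99024190-99024439, Cdk1 chr10:69352913-69353162, Spc25 chr2:69206214-69206463, Pcna chr2:132253181-132253430 and Tk1 chr11:117826015-117826264. Capitals mark CCAAT boxes (CCAAT), CHR elements (TTTGAA) and E2F sites (TTTGGCGC, TTTCCCGC, TTTCGCGC or TTTGCCGC) on either strand.
Top2a: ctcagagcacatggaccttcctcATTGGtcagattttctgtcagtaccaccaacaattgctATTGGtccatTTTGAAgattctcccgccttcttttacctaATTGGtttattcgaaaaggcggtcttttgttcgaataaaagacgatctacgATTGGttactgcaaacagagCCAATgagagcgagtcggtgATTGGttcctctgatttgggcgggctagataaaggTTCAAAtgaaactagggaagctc
Cdk1: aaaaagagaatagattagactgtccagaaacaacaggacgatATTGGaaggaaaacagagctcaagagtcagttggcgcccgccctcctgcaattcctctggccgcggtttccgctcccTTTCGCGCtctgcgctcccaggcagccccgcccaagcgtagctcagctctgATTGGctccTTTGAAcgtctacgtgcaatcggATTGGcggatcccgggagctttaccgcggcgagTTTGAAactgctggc
Spc25: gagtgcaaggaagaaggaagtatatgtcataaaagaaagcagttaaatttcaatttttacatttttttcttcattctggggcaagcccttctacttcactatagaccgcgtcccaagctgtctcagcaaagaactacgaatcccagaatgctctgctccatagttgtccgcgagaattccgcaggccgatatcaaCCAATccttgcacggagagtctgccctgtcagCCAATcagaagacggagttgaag
Pcna: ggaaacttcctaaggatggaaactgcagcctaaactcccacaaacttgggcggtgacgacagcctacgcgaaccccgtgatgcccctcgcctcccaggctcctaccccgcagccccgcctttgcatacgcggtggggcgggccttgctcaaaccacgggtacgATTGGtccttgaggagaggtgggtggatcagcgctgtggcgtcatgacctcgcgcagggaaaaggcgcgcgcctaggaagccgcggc
Tk1: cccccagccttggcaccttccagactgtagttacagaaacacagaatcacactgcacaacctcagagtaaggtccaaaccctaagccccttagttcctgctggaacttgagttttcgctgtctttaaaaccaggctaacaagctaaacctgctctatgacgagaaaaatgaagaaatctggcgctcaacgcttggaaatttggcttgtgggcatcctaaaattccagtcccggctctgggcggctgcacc
The Top2a window held 6 CCAAT boxes and 2 CHR elements. The Cdk1 window held 3 CCAAT boxes, 2 CHR elements and 1 E2F site. Spc25 had 2 CCAAT boxes, Pcna had 1, and none of these letters stood in the Tk1 window. RefSeq windows were at hand for 33 of the 42 members. Of these 33, 25 (75.8%) held a CCAAT box, against 34.5% of 27025 promoters of the same length. A CHR element stood in 8 members (24.2%, against 16.3% of all promoters) and an E2F site in 5 (15.2%, against 1.9%). All 8 members with a CHR element also had a CCAAT box. The E2F sites were in Cdk1, Cdc6, Mcm5, Mcm6 and Mcm7. A match is a description of the letters, not of a factor bound there.

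Each value below is a log2 ratio of the first named group over the second. A mean is given ± SE of the limma fit to all 22 arrays, so the SE is nearly the same for a gene in every comparison and is not the spread of its 2 arrays. A call needed a limma p below 0.05 after Benjamini-Hochberg adjustment over all genes tested, and ratios of one sign on both arrays. These rules gave 33 calls of members, the sex differences included, of which 7 were kept when median centring took the place of loess and 16 when each comparison was fitted alone. Between 57.1% and 77.7% of spots in a channel were well above background, the Y-linked genes followed the labelled sexes on 22 of 22 arrays, and 6 of 9 listed hepatocyte markers were tested, all 6 well above background in both channels of every comparison. Socs2, a feedback target of GH, had log2 ratios of 2.22 in males and 2.97 in females 30 min after GH, and it was called in both. Cish and Igf1, the other genes of this check, were not called at 30 min. Their log2 ratios were -0.12 and 2.19 in males and 0.36 and 2.88 in females, given by size. Marker genes of other cells and tissues differed between some pools, and array medians of some of these lists, not all, are given beside the results.

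**Figure D1:**
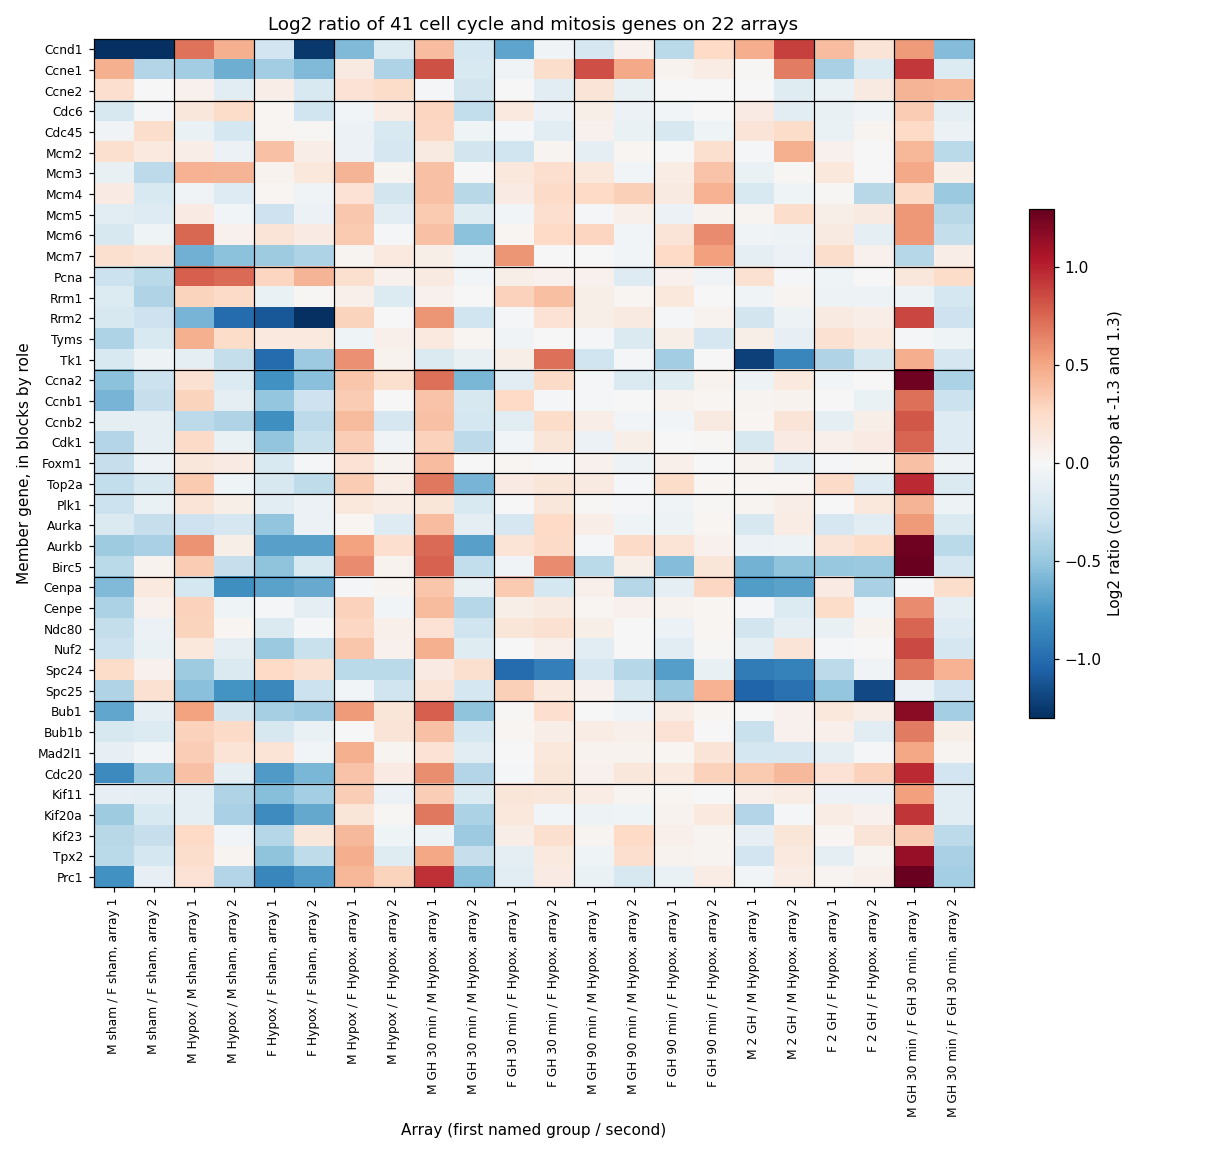
Log2 ratio (colour, red higher and blue lower in the first named group) of the 41 measured members, in rows by role, on each of the 22 arrays, in columns by comparison. The mitotic rows in the lower part change colour together on the arrays of replicate 1 that carry male pools 30 min after GH, whereas Pcna, Tk1, Spc24 and Spc25 follow patterns of their own.

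In sham-operated mice, 4 members were lower in males than in females and 0 were higher. Among all genes tested, 3.74% were called lower and 5.02% higher, and the 4 members make 9.8% of the 41. Ccnd1, cyclin D1, the partner of Cdk4 and Cdk6 in G1, had ratios of -1.44 and -1.85 on the 2 arrays. Both arrays placed it far below the female level. Its mean was -1.65 ± 0.29, a 3.13-fold lower level in males (limma adjusted p = 0.0027).

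The other 3 were S-phase genes with small differences. Pcna, the sliding clamp of the replication fork, read -0.28 and -0.35 (mean -0.31 ± 0.07, limma adjusted p = 0.015). Tyms, thymidylate synthase, read -0.40 and -0.19 (mean -0.30 ± 0.06, limma adjusted p = 0.0083). Rrm1, the large subunit of ribonucleotide reductase, read -0.17 and -0.39 (mean -0.28 ± 0.06, limma adjusted p = 0.016). For each of them both arrays lay on the female side.

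None of the 25 mitotic members (cyclins A and B with Cdk1, Foxm1, Top2a, and the kinases, kinetochore, checkpoint and spindle genes) was called between the sham sexes. Their median was -0.22, with medians of -0.35 and -0.12 on the 2 arrays. On both arrays 20 of the 25 lay below 0, against 32.4% of all genes tested. Cdk1, the kinase of mitosis, read -0.38 and -0.12, and Cdc20, an activator of the anaphase-promoting complex, read -0.83 and -0.49. In a fit without the 4 arrays of male pools killed 30 min after GH, the count of lower members was 8, with Ccna2, Ccnb1, Aurkb and Cdc20 added. That fit called 10.1% of all genes in either direction. Without replicate 1 the count of lower members was 2 and without replicate 2 it was 0. The Kupffer cell and macrophage markers had medians of -0.42 and -0.77 on these arrays (9 tested, 2 called lower), and the T and NK lymphocyte markers of -0.26 and -0.68 (8 tested, 1 called lower). Of 15 skeletal muscle markers 2 were called higher in males (1.73 and 2.59). The part of these cells in the member values was not tested.

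After removal of the pituitary in males, 4 members rose and 5 fell. Over the whole array 18.8% of genes were called higher and 18.6% lower, so the members' shares of 9.8% and 12.2% lay below the background. The 4 that rose all act in DNA replication. Pcna read 0.77 and 0.73, so its 2 arrays nearly coincided. Its mean of 0.75 ± 0.07 was a 1.69-fold rise (limma adjusted p = 5.7e-06).

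Mcm3, a subunit of the replicative helicase, read 0.45 on both arrays (mean 0.45 ± 0.12, limma adjusted p = 0.0084). Tyms read 0.46 and 0.24 (mean 0.35 ± 0.06, limma adjusted p = 0.00065). Rrm1 read 0.29 and 0.25 (mean 0.27 ± 0.06, limma adjusted p = 0.0051). These 3 thus rose by less than Pcna, with both arrays above 0. The dimmer probes of Mcm3 and Tyms gave means of 0.32 and 0.37.

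The falls were led by Rrm2, the small subunit of ribonucleotide reductase whose level is highest in S phase, which read -0.60 and -1.00 (mean -0.80 ± 0.22, limma adjusted p = 0.013). The large and small subunits of that enzyme therefore moved in opposite directions in males. Spc25, of the kinetochore's Ndc80 complex, read -0.54 and -0.78 (mean -0.66 ± 0.22, limma adjusted p = 0.033). Mcm7, another helicase subunit, read -0.63 and -0.54 (mean -0.58 ± 0.12, limma adjusted p = 0.0017). Mcm7 and Mcm3 belong to the same ring and also moved in opposite directions.

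Cenpa, the histone H3 variant that marks centromeres, read -0.23 and -0.80 (mean -0.51 ± 0.16, limma adjusted p = 0.020). Spc24, the partner of Spc25, read -0.47 and -0.19 (mean -0.33 ± 0.10, limma adjusted p = 0.021). Their arrays differed by more than those of Pcna or Mcm7, although all were below 0. The other 22 mitotic members were not called: Cdk1 read 0.25 and -0.09, Top2a, the topoisomerase that untangles chromosomes, 0.34 and -0.05, and Bub1, a spindle checkpoint kinase, 0.53 and -0.24. For these the 2 arrays lay on opposite sides of 0. Ccnd1 read 0.71 and 0.46 (mean 0.59 ± 0.29, limma adjusted p = 0.13).

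Lymphocyte markers were higher in the Hypox males: all 5 detected B lymphocyte markers (array medians 0.51 and 0.50) and 7 of 8 T and NK lymphocyte markers (1.08 and 0.61) were called higher, while 9 of 15 skeletal muscle markers were called lower (-1.95 and -2.72). Of 9 Kupffer cell and macrophage markers 0 were called (0.61 and 0.06). Of 8 endothelial markers 4 were called higher and 1 lower (0.21 and 0.14), and of 6 erythroid markers 1 higher and 3 lower (-0.16 and -0.13). Of 6 hepatocyte markers 2 were called lower, with array medians (-0.66 and 0.08) that followed the dye. The part of these cells in the member values was not tested. Left without the 4 arrays of male pools killed 30 min after GH, the fit called 14 members instead of 9, of which 9 were shared. Of all genes, that fit called 40.1% in either direction. In fits that kept those 4 arrays, 3 members were called with replicate 1 of this comparison left out, and 4 with replicate 2 left out. Pcna was called under every alternative.

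**Figure D2:**
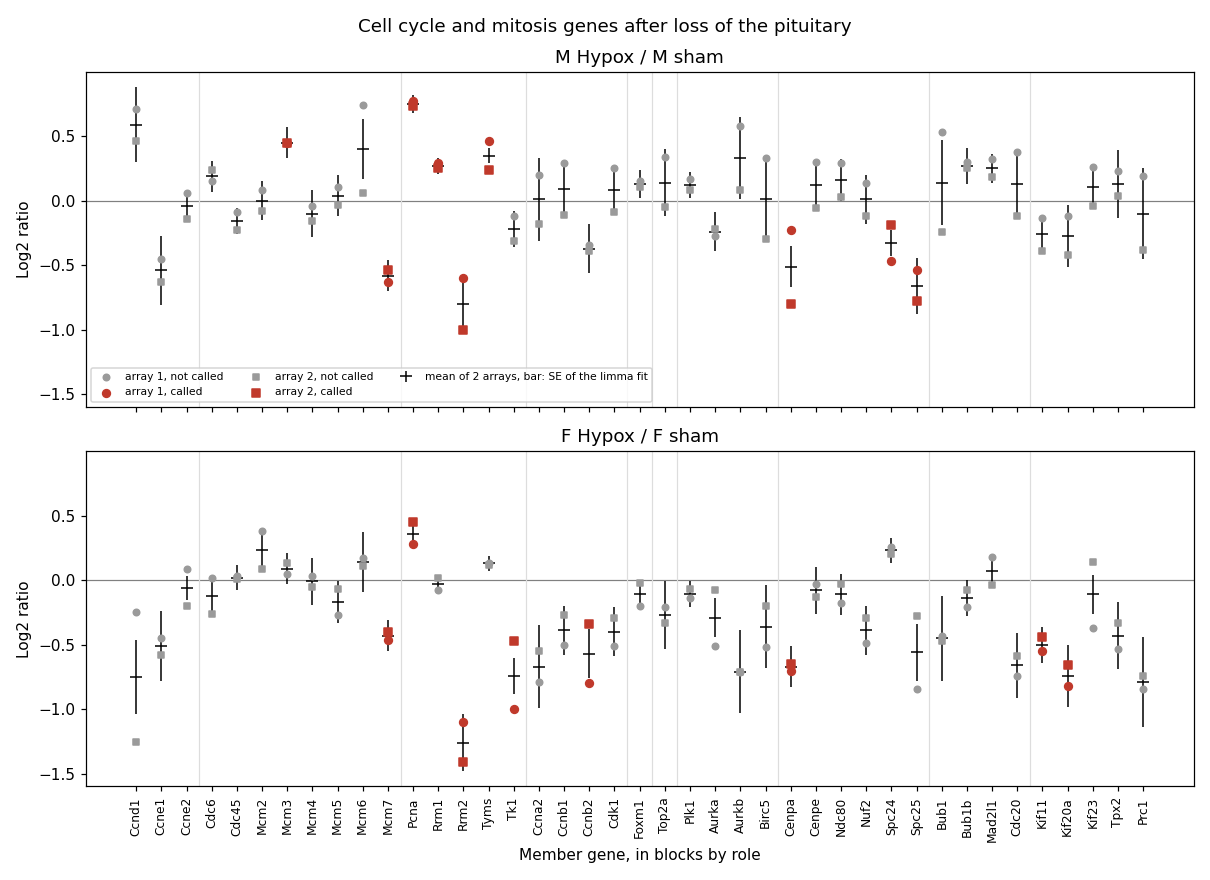
Log2 ratio of Hypox over sham for each of the 41 measured members in males (top) and females (bottom), with circles for array 1, squares for array 2, horizontal ticks for the mean and bars for the SE of the limma fit. Red marks the called members, 9 in males and 8 in females, and Pcna stands above 0 in both panels while Rrm2 has the lowest mean in both.

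After removal of the pituitary in females, 7 members fell and 1 rose. Genes called lower made up 16.5% of those tested and genes called higher 14.6%, so the 17.1% of members that fell is close to the background. Rrm2 read -1.10 and -1.41, the lowest of the 41 members on average. Its mean of -1.26 ± 0.22 was a 2.39-fold fall (limma adjusted p = 0.0010). Tk1, thymidine kinase 1, a salvage enzyme of S phase, read -1.00 and -0.47 (mean -0.74 ± 0.14, limma adjusted p = 0.0016). Mcm7 read -0.46 and -0.40 (mean -0.43 ± 0.12, limma adjusted p = 0.013). All 3 act in DNA synthesis and were below 0 on both arrays.

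The other 4 that fell act in mitosis. Kif20a, a kinesin of the central spindle, read -0.82 and -0.66 (mean -0.74 ± 0.24, limma adjusted p = 0.031). Cenpa read -0.70 and -0.65 (mean -0.67 ± 0.16, limma adjusted p = 0.0058). Ccnb2, cyclin B2, read -0.80 and -0.34 (mean -0.57 ± 0.19, limma adjusted p = 0.039). Each was lower on both arrays, with the arrays of Cenpa closest together. Kif11, the kinesin that pushes spindle poles apart, read -0.55 and -0.44 (mean -0.50 ± 0.14, limma adjusted p = 0.018). Pcna was the member that rose, with 0.28 and 0.45 (mean 0.36 ± 0.07, limma adjusted p = 0.0022).

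The mitotic members as a group leaned the same way: 22 of 25 were below 0 on both arrays, against 36.8% of all genes tested, and their array medians were -0.51 and -0.29. Prc1, which bundles the microtubules of the central spindle, read -0.84 and -0.74 and had the lowest mean of the 25, -0.79 ± 0.35, yet was not called (limma adjusted p = 0.11). Aurkb, the kinase of the chromosomal passenger complex, read -0.71 on both arrays and was not called. Cdk1 read -0.51 and -0.29 and Ccnd1 -0.25 and -1.25, both without a call. In the Hypox channel 14 of the 25 mitotic members, and 29 of all 41, were well above background on both arrays, against 25 and 41 in the sham channel. On array 2 that channel had 57.1% of spots well above background, the lowest share of any channel, and its part in the lower values was not tested. Of the called members Kif11 was above background on 1 array only. The 13 replication members had array medians of 0.03 and 0.01, since Pcna and some helicase subunits lay above 0 while Rrm2, Tk1 and Mcm7 fell.

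The count of called members moved with the arrays and the model that were fitted. Without the 4 arrays of male pools killed 30 min after GH the fit called 20 members, 19 of them lower, with 32.8% of all genes called in either direction. The 12 added members were Ccnd1, Ccne1, Ccna2, Ccnb1, Cdk1, Aurka, Aurkb, Nuf2, Bub1, Cdc20, Tpx2 and Prc1, with log2 ratios from -0.79 to -0.29. A model of group levels that joins all comparisons called 16 members, 14 of them lower, and 37% of all genes in either direction. Without replicate 1 of this comparison 3 members were called, and without replicate 2, 2. Of the markers of other cells, 4 of 5 B lymphocyte genes were called higher (array medians 0.27 and 0.51) and 1 of 9 Kupffer cell and macrophage genes lower (-0.15 and -0.52). Of 6 hepatocyte markers 1 was called higher and 2 lower, with array medians (-0.78 and 0.32) that again followed the dye. Of 6 erythroid markers 1 was called higher and 3 lower (-0.17 and -0.08). The part of these cells was not tested.

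The response to loss of the pituitary differed between the sexes for 2 members, as a contrast of the 2 comparisons in the same fit. Among all genes tested, 3.22% had a called difference toward males and 3.52% toward females. Pcna rose more in males than in females, by 0.39 ± 0.10 (limma adjusted p = 0.039). Spc24 fell in males but read 0.26 and 0.20 in females, a difference of -0.56 ± 0.14 (limma adjusted p = 0.036). For Ccnd1 the difference was 1.34 ± 0.41, which missed the threshold (limma adjusted p = 0.070). The fit without the 4 arrays of male pools killed 30 min after GH called 6 members here, and the model of group levels 11. They called 7.61% and 22.2% of all genes, respectively, in either direction. In 4 of the settings, among them each that left out a replicate, 0 members were called.

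Between Hypox males and Hypox females, 0 members were called by limma, and 2 were higher and 1 lower at an unadjusted p under 0.05. The share of all genes called in either direction was 1.63%. The members had a median of 0.13, and medians of 0.29 and 0.03 on the 2 arrays. Ccnd1 read -0.57 and -0.17, against -1.44 and -1.85 between the sham sexes. Pcna read 0.20 and 0.05 and Cdk1 0.32 and -0.04. None of these 3 genes passed the test between the Hypox sexes. The model of group levels called 3 members here, Ccne2, Tk1 and Spc24, and 9.98% of all genes in either direction. The T and NK lymphocyte markers had medians of 0.51 and -0.04 and the hepatocyte markers of 0.34 and -0.62, with 0 called. The part of these cells in the member values was not tested.

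At 30 min after GH, the members of the 2 male arrays went opposite ways. In males 0 of 41 members were called, and 0 had an unadjusted p under 0.05, where 2.5% of all genes were called in either direction. On replicate 1, 38 of 41 members lay above 0 with a median of 0.38, and on replicate 2, 4 of 41 did, with a median of -0.23. Top2a read 0.68 and -0.61, Prc1 0.95 and -0.55, Bub1 0.78 and -0.52, and Aurkb 0.73 and -0.70. In each of these genes replicate 1 lay above 0 and replicate 2 below it.

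The same split came back where the male pools were set against female pools 30 min after GH. There 36 of 41 members lay above 0 on replicate 1 (median 0.56) and 8 on replicate 2 (median -0.18). Top2a read 0.97 and -0.18, Prc1 1.28 and -0.44, Ccna2, cyclin A2, 1.27 and -0.41, and Birc5, survivin, 1.29 and -0.22. Replicate 1 holds the male pool labelled with 4 of the group's 7 mice and replicate 2 that of 3. The deposited value table numbers the 2 arrays of the male GH comparison the other way round, so which pool was high there rests on the scanner files' numbering. For the comparison of the sexes both sources number the arrays alike.

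Markers of some other cells were high on the same arrays, and those of others were not. The 15 skeletal muscle markers had a median of 2.90 on replicate 1 of the male GH comparison and -0.04 on replicate 2, and of 2.83 and -0.01 in the comparison of the sexes. The 9 Kupffer cell and macrophage markers had medians of 0.67 and -0.20, and of 0.88 and -0.33. For the 8 T and NK lymphocyte markers they were 0.40 and -0.17, and 0.67 and -0.02. The 8 stellate cell and fibroblast markers had medians of 0.47 and -0.21 in the male GH comparison. In the comparison of the sexes they had 0.34 and 0.09, both above 0. No marker of these 4 lists was called in either comparison, and their part in the member values was not tested. Other lists had these medians on replicate 1 of the 2 comparisons, in that order. Cholangiocyte markers had -0.17 and -0.08, erythroid 0.01 and -0.11, and pancreatic acinar -0.09 and -0.04. Endothelial markers had 0.11 and -0.06, hepatocyte -0.23 and 0.33, and B lymphocyte 0.17 and 0.32. Neutrophil and myeloid precursor markers had 0.10 and 0.33, and -0.73 on replicate 2 of the comparison of the sexes.

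**Figure D3:**
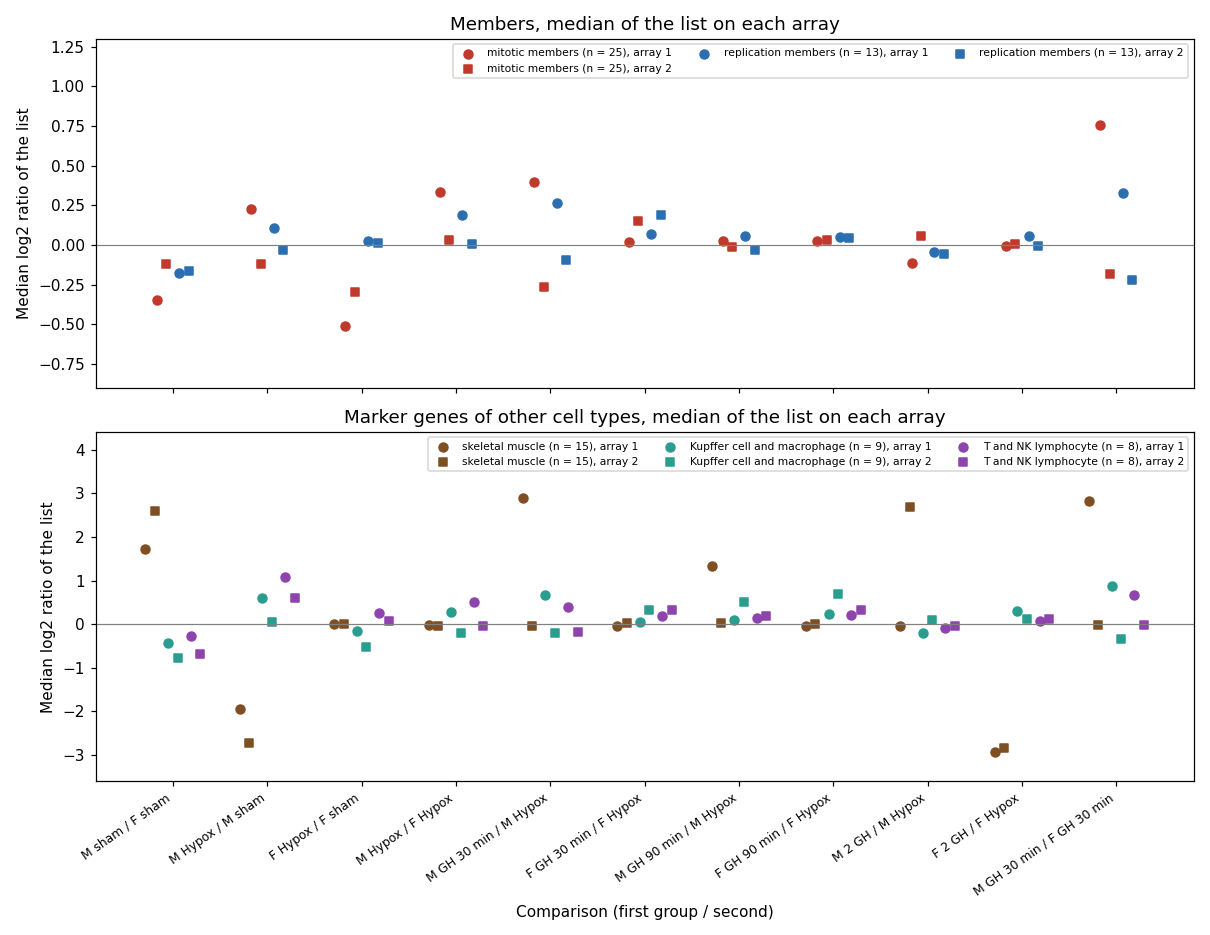
Median log2 ratio on each array (circles replicate 1, squares replicate 2) of the 25 mitotic and 13 replication members (top) and of the marker genes of skeletal muscle, Kupffer cells and macrophages, and T and NK lymphocytes (bottom), by comparison. The arrays of the male pools 30 min after GH show the mitotic median at 0.40 and -0.26 against Hypox males and at 0.76 and -0.18 against females.

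Among the 26179 genes with a value on all 22 arrays, Top2a was used as the reference for this shared variation. It was chosen after the values were seen because no probe was matched to Mki67. The 5 genes with the highest Pearson r to Top2a over the 22 array ratios were Neil3 (0.96), Bub1 (0.94), Nusap1 (0.93), Depdc1a (0.93) and a transcript named only X82786 (0.93). Probes that matched no gene by accession or name, such as X82786, were left unnamed, and a probe of Mki67 could be among them. Of the 24 other mitotic members, 16 had an r over 0.7, and their median was 0.82. Of the 13 replication members 3 did, with a median of 0.35, and the 3 cyclins of G1 ranged from 0.35 to 0.50. Lowest were Spc24 at -0.08 and Mcm7 at -0.06, with Pcna at 0.18 and Spc25 at 0.24. In all 556 genes had an r over 0.7, and Ifng, Cxcl9, Cxcl10 and Ccl5, which T cells, NK cells and macrophages make or respond to, were between 0.88 and 0.90. These ratios share pools and slides and give a description, not a test.

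In females 30 min after GH, Spc24 was the single member called, and it fell. Among all genes tested, 0.00763% were called lower. At an unadjusted p under 0.05 by limma, 3 members were higher, all of them replication members, and 1 was lower. Spc24 read -1.00 and -0.89, with both arrays close together. Its mean was -0.94 ± 0.10, a 1.92-fold fall (limma adjusted p = 0.0062). In males it read 0.10 and 0.21, and the difference between the sexes was 1.10 ± 0.14 (limma adjusted p = 0.050), short of a call. No member had a called sex difference at 30 min, against 0.00382% of all genes, but Spc24 was called under 6 alternatives. No other kinetochore member fell with it: Spc25 read 0.31 and 0.13 and Ndc80, another subunit of the same complex, 0.16 and 0.20. Without either replicate, 0 members were called. The 7 neutrophil and myeloid precursor markers had medians of -0.001 and 0.75 on these arrays, with 0 called, and their part was not tested.

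Set directly against females 30 min after GH, males had 2 members higher, where 0.275% of all genes were called higher. Spc24 read 0.68 and 0.45 (mean 0.57 ± 0.10, limma adjusted p = 0.029). Ccne2, cyclin E2, read 0.44 on both arrays (mean 0.44 ± 0.09, limma adjusted p = 0.048). Unlike the mitotic genes described above, these had both arrays on the male side. Of 12 alternatives, the Spc24 call was lost in 6 and that of Ccne2 in 7. Neither was called without replicate 1, with median centring, with an offset of 10, without the dye term or when fitted alone.

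At 90 min after GH, 0 members were called in males and 1 in females. In males 1 member was higher and 1 lower at an unadjusted p under 0.05 by limma, and 4.98% of all genes were called in either direction. The male member ratios ranged from -0.30 (Spc24, -0.22 and -0.37) to 0.67 (Ccne1, cyclin E1, 0.84 and 0.49). The dimmer probe of Ccne1 gave a mean of 0.13. In females Spc24 fell, with -0.71 and -0.10 (mean -0.41 ± 0.10, limma adjusted p = 0.047), where 0.82% of all genes were called lower. That call was lost in 7 of the 13 alternatives. In females too, 1 member was higher and 1 lower at an unadjusted p under 0.05 by limma. Pcna read 0.06 and -0.17 in males and 0.05 and -0.05 in females, and Cdk1 -0.08 and 0.08 in males and 0.00 and 0.01 in females. The sex difference at 90 min was called by limma for 0 members and for 0.00763% of all genes. At that time the skeletal muscle median was 1.32 and 0.03 on the male arrays, and the Kupffer cell and macrophage median 0.24 and 0.68 on the female ones. The hepatocyte median was -0.36 and 0.62 on the female arrays, and it followed the dye there too. The part of these cells was not tested.

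After 2 GH injections, 4 members fell in males and 0 rose. Of all genes tested 8.7% were called lower, near the 9.8% of members, and 10.6% higher. Tk1 read -1.21 and -0.85 (mean -1.03 ± 0.14, limma adjusted p = 0.00027), a 2.04-fold fall. Spc25 read -1.04 and -0.97 (mean -1.00 ± 0.22, limma adjusted p = 0.0066). Spc24 read -0.91 and -0.88 (mean -0.89 ± 0.10, limma adjusted p = 7.7e-05). Cenpa read -0.72 and -0.69 (mean -0.71 ± 0.16, limma adjusted p = 0.0065). In these 3 kinetochore and centromere genes the 2 arrays nearly coincided.

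The other mitotic members were not called: Cdk1 read -0.21 and 0.10, Top2a 0.02 and 0.03, and Ndc80 -0.24 and -0.13. Birc5 read -0.61 and -0.52 without a call (mean -0.57 ± 0.32, limma adjusted p = 0.28). Ccnd1 read 0.47 and 0.88 and Pcna 0.20 and -0.03, also without a call. Of 6 pancreatic acinar markers 5 were called higher on these arrays (array medians 0.27 and 3.52), and the skeletal muscle median was -0.03 and 2.68. Without replicate 2, which carries the higher medians, 3 members were called, and without replicate 1, 2 members. Of the 4, Spc24 was called under every alternative.

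In females after 2 GH injections Spc25 was the single member called. It read -0.50 and -1.17 (mean -0.84 ± 0.22, limma adjusted p = 0.037), where 4.03% of all genes were called lower. Tk1 read -0.39 and -0.21, Spc24 -0.34 and -0.04, and Cenpa 0.10 and -0.42. Of these genes only Spc24 differed between the sexes in its response, by -0.70 ± 0.14 (limma adjusted p = 0.032), where 0.866% of all genes had a called difference toward a lower male response. For Tk1 the difference was -0.73 ± 0.20 (limma adjusted p = 0.070) and for Spc25 -0.17 ± 0.31 (limma adjusted p = 0.86). The sex difference of Spc24 was lost in 6 of the 13 alternatives. Without either replicate Spc25 was not called, and 13 of 15 skeletal muscle markers were called lower on these arrays (medians -2.94 and -2.85). Of 8 stellate cell and fibroblast markers 1 was called lower (-0.28 and -0.55), and of 8 endothelial markers 2. The part of these cells was not tested.

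**Figure D4:**
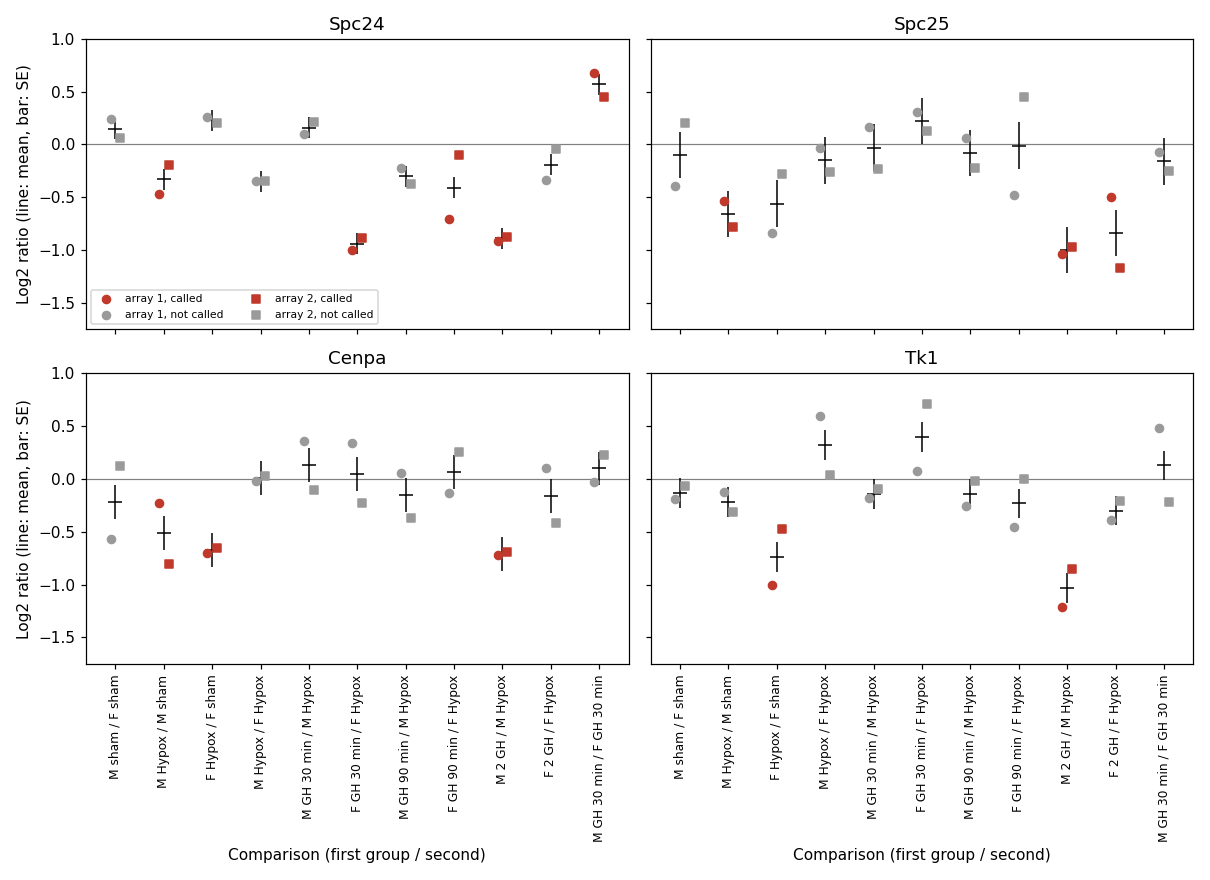
Log2 ratios of Spc24, Spc25, Cenpa and Tk1 in the 11 comparisons, with circles for array 1, squares for array 2, ticks for the mean and bars for the SE of the limma fit. Red marks called comparisons, and all 4 genes are called lower in males after 2 GH injections, with Spc24 also lower in females 30 min after GH.

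Other genes of the cell cycle, 101 of 117 listed ones tested, give the surroundings of these members. In Hypox over sham, 23 were called higher and 13 lower in males and 12 higher and 14 lower in females. That is 22.8% and 12.9% of the 101 in males, against 18.8% and 18.6% of all genes, and 11.9% and 13.9% in females, against 14.6% and 16.5%. E2f8, an E2F that represses S-phase genes, read -4.11 and -3.92 in males and -3.88 and -3.81 in females. Ect2, the exchange factor that activates RhoA in cytokinesis, read -1.82 and -1.33 in males and -2.72 and -2.79 in females. The falls of E2f8 were larger than that of any member. The CDK inhibitor Cdkn1c rose (1.61 ± 0.16 in males and 1.38 ± 0.16 in females) while Cdkn1a fell (-1.09 ± 0.34 and -1.69 ± 0.34). Wee1, the kinase that holds Cdk1 inactive, rose by 1.62 ± 0.28 in males and 0.87 ± 0.28 in females.

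At 90 min after GH, 5 of these 101 genes rose in males and 8 in females, and 0 fell in either sex. The shares that rose were 5.0% and 7.9%, against 3.4% and 2.34% of all genes. Myc, a growth-promoting transcription factor, read 2.42 and 2.82 in males and 3.07 and 2.87 in females. E2f8 rose by 1.70 ± 0.28 in males and 1.51 ± 0.28 in females, and Ect2 by 1.48 ± 0.13 and 1.51 ± 0.13. At that time no member among the 41 was called higher. After 2 GH injections, 9 rose and 14 fell in males, and 4 rose and 3 fell in females. In males that is 8.9% and 13.9%, against 10.6% and 8.7% of all genes, and in females 4.0% and 3.0%, against 4.4% and 4.03%. Ect2 rose by 0.95 ± 0.13 in males and 1.53 ± 0.13 in females. Chek1, a checkpoint kinase of replicating cells, rose by 1.18 ± 0.14 and 0.78 ± 0.14, and Fen1, which trims Okazaki fragments, by 1.12 ± 0.11 and 0.48 ± 0.11. Lig1, which seals them, fell (-0.81 ± 0.11 in males and -0.73 ± 0.11 in females). By 30 min after GH, 1 of the 101 was called in males, Rb1 at 0.30 ± 0.07, and 0 in females, where 6 were higher and 4 lower at an unadjusted p under 0.05. The male share was 1.0%, against 2.5% of all genes called in either direction.

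Between the sham sexes 4 of the 101 were called higher in males and 7 lower. That is 4.0% and 6.9%, against 5.02% and 3.74% of all genes. Mcm10, which acts when the replicative helicase starts, read 1.84 and 2.05, and Esco2, which acetylates cohesin in S phase, read 1.13 and 1.57. Esco2 fell in males after removal of the pituitary (-2.00 ± 0.27). Between Hypox males and females 3 were higher, led by Wee1 (1.35 ± 0.28), and 1 was lower. That is 3.0% and 1.0% of the 101, where 1.63% of all genes were called in either direction. These genes were not members of the list of 42 and are given for comparison.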

How the data were processed

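Pooled liver RNA was amplified, labelled with 1 of 2 Alexa dyes and hybridised to 2-colour arrays, per the labels' protocols. Per the file headers, each deposited scanner file gives both channels' spot intensity, spot flags and the log10 ratio set by the software (Feature Extraction 9.5.1.1). The authors' deposited value table holds log2 ratios. Its 22 columns equalled scanner log ratios within 0.005, 6 under the same replicate number and 16 under that of the other replicate. Replicates are numbered here as in the scanner files. For the comparison after 2 GH injections in females, the labels name female Hypox mice as the reference, the series' design text male ones, and the labels were followed.

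Intensities were corrected with limma's normexp (offset 50), followed by loess on every array, leaving out control spots and outlier flags. Ratios were turned to the first named group by the dyes in the labels. Probes were named by accession through RefSeq's mouse table, and the probe with the highest mean intensity stood for each gene. Testing took in the 26207 genes with a channel well above background on the 2 arrays of 1 or more comparisons. Other probes of 5 members were well above background on both arrays of no comparison. limma 3.58.1 (R 4.3.3) fitted 11 comparisons and a dye term to the 22 arrays (10 residual degrees of freedom, prior 2.50). Sex differences were contrasts of that fit, and the test was checked on simulated arrays. Some pools share mice and some were hybridised more than once. The fit took arrays as independent and its SE does not count this sharing.

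The members, the lists of other cell cycle genes and cell markers, the motifs and the tests were chosen with earlier results of these data known. Every called member is named, and Mki67, Ccnd1, Pcna and Cdk1 are given in any case. Of the other lists, some of the called genes were named, by size. For likeness, Top2a took the place of Mki67. Alternatives changed the normalization, the background offset, the dye term, the model, the block, the arrays fitted, the filter and the choice of probe. Each comparison rests on 2 arrays, and their number limits the precision.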

Additional observations from a re-analysis of the deposited data

Results flagged for a closer look

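Pcna and Spc24 stood out because their response differed between the sexes in a test of the difference itself. After loss of the pituitary, the male minus female difference was 0.39 for Pcna and -0.56 for Spc24. After 2 GH injections it was -0.70 for Spc24. These are 3 of the values tested over 41 members and 4 differences by limma, each with p adjusted over all genes tested. Pcna was above 0 on all 4 arrays of the pituitary comparisons. Spc24 was below 0 on both male arrays and above 0 on both female arrays of those comparisons, and below 0 on all 4 arrays after 2 GH injections. The Pcna difference missed the threshold under 6 of the 13 alternatives, and the Spc24 differences under 5 and 6.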

How the results depend on the processing

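Each comparison rests on 2 arrays, and their number limits the precision. None of the 33 called values changed direction under the 13 alternatives, and members that were not called were not followed in this way. A call in a comparison already needed ratios of one sign on both arrays, so leaving out a replicate could hardly reverse it. Of the 33 calls, 33 were kept by the model of group levels, by the slide as a random block and by the stricter background filter, 32 by the mean of all probes and 7 by median centring without loess. Leaving out the arrays of male pools at 30 min was chosen after the data were seen.

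The counts of members called changed by over 1.5 times as follows. With median centring they were 1 between sham sexes, 2 and 1 for Hypox in males and females, 1 and 0 after 2 GH injections in males and females, 0 between sexes at 30 min, and 0 for the sex differences after Hypox and after 2 GH injections. With the scanner software's log ratio they were 1 at 90 min in males, 1 between sexes at 30 min, and 1 each for the sex differences after Hypox and at 30 min. With an offset of 10, and likewise without the dye term, they were 0 at 90 min in females, 0 between sexes at 30 min, 1 for the sex difference after Hypox and 0 for that after 2 GH injections. With the model of group levels they were 16 for Hypox in females, 3 between Hypox sexes, 2 at 30 min in females, and 11, 1 and 2 for the sex differences after Hypox, at 30 min and after 2 GH injections. In that order, this model called 37%, 9.98%, 0.622%, 22.2%, 1.75% and 5.38% of all genes. With the replicate number as a block the counts of members were 0 at 90 min in females and 1 for the sex difference at 30 min, and 32 of 33 calls were kept. The numbers were not shown to pair the arrays: deviations of same-numbered arrays correlated from -0.486 to 0.723 over 55 pairs of comparisons, 27 of them over 0.1. The sex difference at 30 min was also called for 1 member with the slide as a block, the stricter filter and the mean of all probes, the last with 0 at 90 min in females. Arrays fitted alone gave 1 between sham sexes and 0 at 90 min in females, between sexes at 30 min and for the sex differences after Hypox and after 2 GH injections. Without the arrays of male pools at 30 min the counts were 8 between sham sexes, 14 and 20 for Hypox in males and females, 0 at 90 min in females and 6 for the sex difference after Hypox. In that order, this fit called 10.1%, 40.1%, 32.8%, 3.57% and 7.61% of all genes.

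Leaving out 1 replicate gave 0 to 2 between sham sexes, 3 to 4 for Hypox in males and 2 to 3 in females, 0 at 30 min in females, 0 to 1 at 90 min in females, 2 to 3 after 2 GH injections in males and 0 in females, 0 to 1 between sexes at 30 min, and 0 for each sex difference. The cause of these changes was not tested.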
